A study of Mus musculus with 39 samples.

Results

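The miRNAs described here come from paralogous clusters that each carry a miR-99 family member, a let-7 and a miR-125, and 1 of them, let-7c, also has a copy outside these clusters. They number 8 of the 650 miRNAs on the array: mmu-miR-99b, its other strand mmu-miR-99b*, mmu-let-7e and mmu-miR-125a-5p from the cluster on chromosome 17, and mmu-miR-99a, mmu-let-7c, mmu-miR-125b-5p and mmu-miR-100 from its paralogs on chromosomes 16 and 9. They were selected on measured levels in these same arrays, the levels of the chromosome 17 cluster against those of its paralogs over all groups. Their levels and differences are therefore a description with no test, and nothing is supported with them.

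The samples come from a study of mouse embryonic stem (ES) cells treated with Activin A and Wnt3a, growth factors used to direct such cells toward definitive endoderm. Total RNA of each sample was measured on a 1-colour Agilent miRNA array, 39 arrays in 13 groups of 3. One group was undifferentiated ES cells. The other 12 were cells kept for 1, 3 or 5 days without growth factors (control), with Wnt3a at 50 ng/ml, with Activin A at 100 ng/ml, or with Activin A plus Wnt3a at the same doses.

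Undifferentiated cells grew with LIF on mouse embryonic fibroblasts treated with mitomycin C. A step on gelatin served to leave out the feeders. All differentiating groups, controls included, were then kept on collagen in RPMI medium with B27 and, as the labels have it, sodium butyrate. The labels do not say whether the 3 samples of a group came from separate cultures, so errors and p-values measure only the spread between samples. All 8 ES cell marker miRNAs of the miR-290 to miR-295 cluster were detected on every array of undifferentiated cells, with miR-294 the most abundant and a summed normalized signal of 35689 to 36265.

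MicroRNAs are cut from hairpin precursors and guide silencing proteins to messenger RNAs that pair with their seed, so miRNAs with a common seed share many potential targets. The let-7 family is known for rising as cells leave pluripotency and for repressing genes of the undifferentiated state, its maturation being held back in ES cells by LIN28. The miR-125 family, founded by worm lin-4, and the miR-99/100 family often lie beside let-7 genes in animal genomes.

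The mature sequences of the 8 members and of mmu-let-7a and mmu-miR-10a are shown because the levels below turn on how alike the paralogs are. Capitals mark the seed, bases 2 to 8. They are RefSeq sequences (build GRCm38.p6), in which 8 of 8 members were matched by name. The miR-99 seed came first.
mmu-miR-99b: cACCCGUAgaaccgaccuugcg
mmu-miR-99a: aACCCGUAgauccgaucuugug
mmu-miR-100: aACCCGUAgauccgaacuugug
The let-7 seed is shared by let-7e, let-7c and let-7a.
mmu-let-7e: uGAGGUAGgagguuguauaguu
mmu-let-7c: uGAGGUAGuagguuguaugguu
mmu-let-7a: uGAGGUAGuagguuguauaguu
The miR-125 seed is shared by miR-125a-5p and miR-125b-5p.
mmu-miR-125a-5p: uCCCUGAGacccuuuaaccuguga
mmu-miR-125b-5p: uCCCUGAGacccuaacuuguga
The passenger strand of the miR-99b hairpin has a seed of its own, and miR-10a resembles miR-99a and miR-100 in sequence with a shifted seed.
mmu-miR-99b*: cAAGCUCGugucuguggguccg
mmu-miR-10a: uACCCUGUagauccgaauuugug

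Paralogs differed outside the seed by few bases, counted from 1 at the 5′ end of the miRNA named first. From miR-99b to miR-99a these were C1A, A11U, C16U and C21U, and from miR-99a to miR-100 only U16A. From let-7e to let-7c they were G9U and A19G, and from let-7c to let-7a only G19A. The miR-125 pair has the same first 13 bases and unequal lengths. How far a probe for one paralog also binds another was not tested.

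The chromosome 17 genes are packed closely on the plus strand inside Spaca6, with miR-99b at chr17:17830194-17830215, miR-99b* at chr17:17830232-17830253, let-7e at chr17:17830366-17830387 and miR-125a-5p at chr17:17830817-17830840, a span of 647 bases. Its paralogs are spread wider, also on the plus strand. On chromosome 16, miR-99a (chr16:77598940-77598961), let-7c (chr16:77599672-77599693) and miR-125b-5p (chr16:77646279-77646300) span 47361 bases. On chromosome 9, miR-100 (chr9:41531437-41531458) and a further copy of miR-125b-5p (chr9:41581940-41581961) span 50525 bases within Mir100hg, and let-7c has a further copy outside the clusters at chr15:85706616-85706637. Identical mature copies give 1 array signal, so the loci of let-7c and of miR-125b-5p cannot be told apart.

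Levels are normalized signals: the summed background-subtracted signal of a miRNA's probes, quantile normalized over the 39 arrays, or its log2. A miRNA that the array software did not detect enters at a floor of 2. So do detected signals under 2, which were 225 of 10796 detected values. The software detected 183 to 375 miRNAs on an array. The lowest detected normalized signal was 12.3 to 34.4 on arrays of undifferentiated cells and day 1. On the later arrays it was 2, the floor itself, to 11.3, and a low level could therefore pass unseen on the early ones. Differences were fitted with limma over the 12 arrays of a day, or over all 39 for steps in time, and a miRNA was called at an adjusted p under 0.05 and a change of more than 2-fold. Where a group was undetected on all 3 arrays, the fold is a lower bound against the lowest signals those arrays detected. Such a group lies at the floor with an SD of 0 and lowers the shared estimate of the spread. Errors and p-values of that miRNA then understate the spread of its measured samples.

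A pair of arrays stood apart from their group. Control day 3 replicate 2 detected 254 miRNAs, against 300 and 302 in replicates 1 and 3, and its lowest detected signal was 11.3, against 3.77 and 3.53. It did not detect let-7e, let-7c or miR-99a, whose signals on the other day 3 control arrays were all under 11.3. Wnt3a day 5 replicate 1 differed from its group mates by a root mean square of 1.14 on the log2 scale, against at most 0.348 outside that group. Where a main result rests on either array, its value without that array is given beside it.

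The arrays filled 5 slides, scanned in 2 sessions, and slide and treatment overlapped in part. At day 1 the controls and 2 of 3 Activin A arrays shared a slide while both Wnt3a groups lay on another. At day 3 all Activin A, all Wnt3a and 2 of 3 control arrays shared a slide, and Activin A plus Wnt3a lay elsewhere, so that effects of slide and of the combined factors cannot be told apart. At day 5 the controls and 2 of 3 Activin A arrays shared a slide, and both Wnt3a groups lay on another.

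In control cells the miR-99 and miR-125 paralogs followed different courses over time, while let-7e and let-7c moved together. After the gelatin step and the change of medium, let-7e and let-7c were high at day 1 and near the limit of detection from day 3 on. MiR-125b-5p dropped steeply at day 3 and was higher again at day 5, and miR-99a and miR-100 were high only at day 5. Fibroblast markers, described further on, were still high at day 1, with a summed signal of 978 to 1018 in controls. Over the same days miR-99b and miR-125a-5p drifted lower in smaller steps.

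The let-7e signal was 81.3, 116 and 96.5 in undifferentiated cells, 240.3, 222 and 222 in controls at day 1, 8.74, undetected and 8.59 at day 3, and 9.51, 9.67 and 12.3 at day 5. All arrays of undifferentiated cells and day 1 thus lay above all later controls, and day 1 lay above the undifferentiated cells. The let-7c signal was 52.2, 90.5 and 67.6 in undifferentiated cells, 200.2, 191 and 186 at day 1, 7.71, undetected and 8.43 at day 3, and 8.08, 9.84 and 5.92 at day 5, the same order without overlap up to day 3. As log2 means, let-7e stood at 6.60 ± 0.26 (SD, n = 3) in undifferentiated cells and at 7.83 ± 0.07 at day 1, a difference of 1.23 (SE 0.45). For let-7c the means were 6.09 ± 0.40 and 7.59 ± 0.05, a difference of 1.49 (SE 0.40). From day 1 to day 3 the log2 difference was -5.42 (SE 0.45) for let-7e and -5.25 (SE 0.40) for let-7c, with the undetected array at the floor. Without control day 3 replicate 2 these values were -4.72 and -4.58. In bulk RNA such as this, fewer cells with a miRNA and less of it per cell cannot be told apart.

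The miR-125b-5p signal was 1333, 1236 and 1236 in undifferentiated cells, 1706, 1800 and 1800 at day 1, 118, 107 and 116 at day 3, and 320.3, 380.4 and 357 at day 5. None of these 4 groups overlapped, with day 1 highest and day 3 lowest. The log2 mean went from 10.79 ± 0.05 (SD, n = 3) at day 1 to 6.83 ± 0.07 at day 3, a difference of -3.96 (SE 0.09) or 15.6-fold. It stood at 8.46 ± 0.13 at day 5, a difference of 1.63 (SE 0.09) from day 3. Its paralog miR-125a-5p gave 89.0, 70.7 and 94.4 in undifferentiated cells, 104, 107 and 111 at day 1, 66.4, 61.8 and 76.5 at day 3, and 43.2, 48.3 and 47.8 at day 5. These arrays were highest at day 1 and lowest at day 5, and each step between control days left the groups apart. The differences were smaller, -0.66 (SE 0.10) from day 1 to day 3 and -0.55 (SE 0.10) from day 3 to day 5.

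In the miR-99 family, miR-99a was undetected in undifferentiated cells and at day 1, gave 7.38, undetected and 9.37 in controls at day 3, and 71.8, 74.0 and 72.8 at day 5. Only at day 5 was it well above the detection limit, with a log2 difference from day 3 of 3.82 (SE 0.28), or 3.13 without control day 3 replicate 2. No fold is given from day 1 to day 3, since the day 3 signals lay under the lowest signal that the day 1 arrays could detect. MiR-100 was undetected in undifferentiated cells, detected on 1 of 3 control arrays at day 1 with a signal of 21.6, and gave 19.9, 17.3 and 25.0 at day 3 and 86.1, 83.8 and 92.2 at day 5. Its day 5 arrays all lay above those of day 3, a difference of 2.09 (SE 0.92) that was not called. By contrast miR-99b gave 133, 135 and 126 in undifferentiated cells, 92.2, 104 and 97.7 at day 1, 75.2, 74.0 and 89.0 at day 3, and 52.2, 56.2 and 55.7 at day 5. It was lower at each step with no overlap, and the differences were -0.42, -0.31 and -0.53 (SE 0.19 each).

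Counts are set beside the share of all miRNAs called, and nothing is read from them. From undifferentiated cells to day 1, 2 of 8 members were called, both higher (let-7e and let-7c), against 16.6% of 373 miRNAs. The call of let-7e there was lost without any of the 3 control arrays or without ES replicate 1 or 3, at differences of 1.11 to 1.25, and miR-99b* was called without control day 1 replicate 3 (-2.83). From day 1 to day 3, 5 of 8 were called (miR-99a and miR-100 higher, let-7e, let-7c and miR-125b-5p lower), against 49.3%. The calls of miR-99a and miR-100 come from the floor: the day 1 control arrays that did not detect them could not see signals as low as some of day 3, and the day 1 and day 3 arrays overlapped, so no rise is read from them. Of these, miR-99a was not called without control day 3 replicate 3 (0.94), and miR-100 was not called without control day 1 replicate 1 or 3 (1.64) or any 1 of the control arrays of day 3 (2.07 to 2.335). Without control day 1 replicate 2 the value of miR-100 was 3.36. From day 3 to day 5, 2 of 8 were called, both higher (miR-99a and miR-125b-5p), against 18.5%. Without control day 3 replicate 1 or 3 let-7e was called as well (1.33 and 1.32), and miR-100 was called at 2.09 without any 1 of 4 arrays of day 1, control replicate 2, Wnt3a replicate 1, Activin A replicate 2 or Activin A plus Wnt3a replicate 2. With slide as a block the day 1 to day 3 differences were -4.46 for let-7e, -4.37 for let-7c and -3.91 for miR-125b-5p. In that fit miR-99b* was called (4.77 in place of 0.72) and miR-100 was not (3.96 in place of 2.21). The first step lay on 1 slide. The day 3 to day 5 step could not be fitted with slide as a block, so slide and day cannot be told apart there.

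Markers of several cell types moved with the day 1 to day 3 step, fibroblast markers among them. Summed over 6 miRNAs, the normalized signal of that list was 444 to 518 in undifferentiated cells, 978 to 1018 in controls at day 1, then only 17.7 to 25.3 at day 3 and 28.8 to 29.5 by day 5, with miR-199a-3p the most abundant. By limma 4 of 5 tested members fell from day 1 to day 3, miR-199a-3p by a log2 difference of -4.94 (adjusted p = 1.8e-08, lower on 3 of 3 arrays). Between undifferentiated cells and day 1, 0 of 5 were called, and among all miRNAs 134 passed an unadjusted p under 0.05. In that step 3 of 5 miR-302 family markers were called lower (median -1.39) and 1 of 4 neural markers, miR-124, higher. MiR-124 was detected on ES replicate 3 only, at 32.7, against 38.4 to 52.2 at day 1. The other ES arrays, with lowest detected signals of 29.6 and 34.4, enter at the floor, so the size of this difference rests on it. By limma 5 of 5 miR-302 family markers rose from day 1 to day 3 (median 3.03), 5 of 8 ES cell markers fell (median -1.34) and 3 of 4 neural markers were called higher, of which miR-9* had signals under the day 1 limits. From day 3 to day 5, 5 of 8 ES cell and 5 of 5 miR-302 family markers fell. The part of any of these cells in the levels of let-7e, let-7c and miR-125b-5p was not tested.

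**Figure D1:**
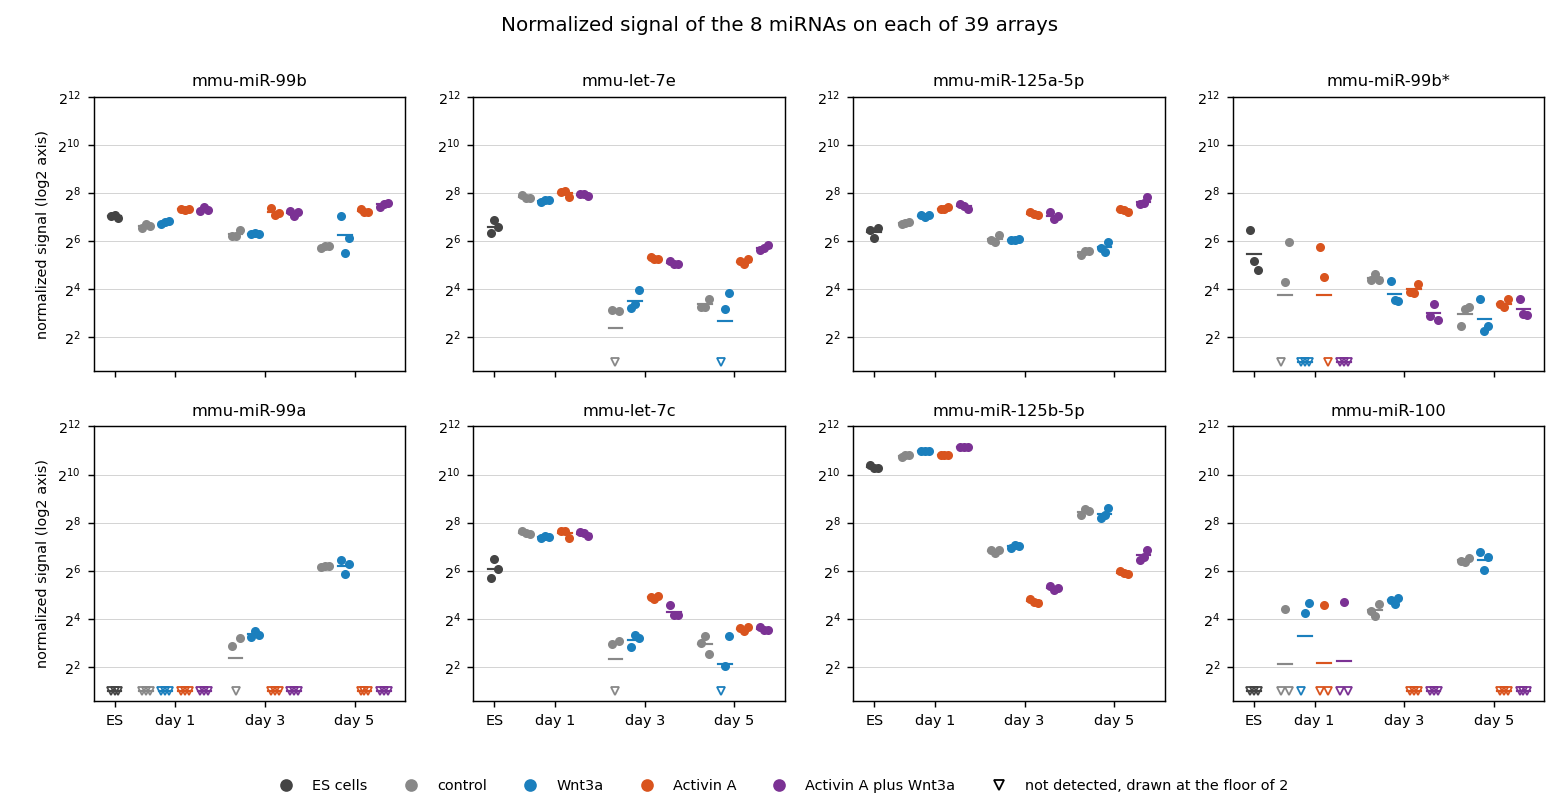
Normalized signal (log2 axis) of each of the 8 miRNAs by group, with points for arrays, bars for group means of the log2 signal and open triangles at the floor of 2 for arrays that did not detect the miRNA. At day 5 miR-125b-5p lay at 320.3 to 380.4 in controls and 57.7 to 63.5 with Activin A, while miR-125a-5p lay at 43.2 to 48.3 and 149 to 164.

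By day 5 the paralogs had parted with Activin A. Compared with controls, cells given Activin A, with or without Wnt3a, had more miR-99b, let-7e and miR-125a-5p from the chromosome 17 cluster and less miR-125b-5p, and miR-99a and miR-100 were not detected in them at all. Wnt3a alone left all 8 members overlapping with the controls.

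For miR-125a-5p at day 5, signals were 43.2, 48.3 and 47.8 in controls, 164, 159 and 149 with Activin A, 186, 191 and 226 with both factors, and 52.2, 47.0 and 62.8 with Wnt3a. Both groups with Activin A lay above every control array, the group with both factors above that with Activin A alone, and Wnt3a overlapped with control. Log2 means were 5.54 ± 0.09 (SD, n = 3) in controls, 7.29 ± 0.07 with Activin A and 7.65 ± 0.15 with both. The difference from control was 1.76 (SE 0.12), or 3.39-fold, with Activin A and 2.11 (SE 0.12), or 4.32-fold, with both.

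Its paralog miR-125b-5p gave 320.3, 380.4 and 357 in controls, 63.5, 59.7 and 57.7 with Activin A, 88.1, 96.5 and 118 with both, and 289.5, 320.3 and 389.8 with Wnt3a. Here both Activin A groups lay under every control array, and the group with both factors again lay above that with Activin A alone. Log2 means were 8.46 ± 0.13 (SD, n = 3) in controls, 5.91 ± 0.07 with Activin A and 6.64 ± 0.21 with both. Relative to control these are differences of -2.55 (SE 0.14), or 5.84-fold, and -1.81 (SE 0.14), or 3.52-fold.

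The miR-99b signal at day 5 was 52.2, 56.2 and 55.7 in controls, 161, 149 and 146 with Activin A, 173, 186 and 194 with both, and 133, 46.1 and 70.7 with Wnt3a. Activin A groups were high on every array, and the wide Wnt3a spread came from replicate 1. Log2 means were 5.77 ± 0.06 (SD, n = 3) in controls, 7.25 ± 0.07 with Activin A and 7.52 ± 0.09 with both, differences of 1.48 (SE 0.30), or 2.78-fold, and 1.75 (SE 0.30), or 3.37-fold.

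Against this, miR-99a gave 71.8, 74.0 and 72.8 in day 5 controls and 87.1, 58.6 and 77.6 with Wnt3a and was undetected on all 6 arrays with Activin A. MiR-100 gave 86.1, 83.8 and 92.2 in controls and 109, 65.3 and 95.4 with Wnt3a, and was likewise undetected on those 6 arrays. For both, control and Wnt3a overlapped and the Activin A groups had no measured level. With Activin A, miR-99a was at least 36.4-fold lower than control and miR-100 at least 43.6-fold lower. These bounds are against the floor of 2, where the lowest detected signals of the Activin A arrays lay. With both factors the bounds were 29.6-fold for miR-99a and 35.5-fold for miR-100.

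Signals of let-7e at day 5 were 9.51, 9.67 and 12.3 in controls, 35.7, 32.7 and 38.4 with Activin A, 49.4, 52.6 and 56.9 with both, and undetected, 9.20 and 14.5 with Wnt3a. The groups with Activin A lay above all controls and the group with both highest, though by the series matrix names the difference between these groups is -0.71 in place of 0.57. The log2 difference was 1.77 (SE 0.59), or 3.41-fold, with Activin A and 2.34 (SE 0.59), or 5.08-fold, with both. In the same samples let-7c gave 8.08, 9.84 and 5.92 in controls, 12.4, 11.3 and 12.9 with Activin A, 12.6, 11.7 and 11.6 with both, and undetected, 4.16 and 9.84 with Wnt3a. Activin A arrays lay above control arrays by a narrow margin, with differences of 0.65 (SE 0.47) and 0.62 (SE 0.47), neither called. Leaving out any of the 9 arrays of control, Activin A or Activin A plus Wnt3a at day 5 ended the call of let-7e with Activin A, at differences of 1.71 to 1.89.

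At day 5, 6 of 8 members were called with Activin A against control (miR-99b, let-7e and miR-125a-5p higher, miR-99a, miR-125b-5p and miR-100 lower), against 25% of 368 miRNAs tested, and nothing is read from it. With both factors the same 6 names were called in the same directions against the same controls, beside 30.4% of all miRNAs. With normexp background correction and an offset of 50, 1 of these 6 calls, miR-125b-5p, was left in each comparison. For Wnt3a, limma called 0 of 8, beside 3.8% of all, and 76 miRNAs passed an unadjusted p under 0.05. Without Wnt3a day 5 replicate 1, the Wnt3a differences were 0.06 for miR-99b (0.47 with it), 0.01 for miR-125b-5p (-0.09) and -0.11 for miR-99a (0.01), none called. Let-7c with Wnt3a, at -0.84, was -0.28 without replicate 1 and was called without replicate 3 (-1.43), and let-7e went from -0.69 to 0.15 without replicate 1. Within the slide that held controls and 2 Activin A arrays, the Activin A differences were 1.503 for miR-99b, 1.72 for let-7e, 1.80 for miR-125a-5p and -2.51 for miR-125b-5p, and with slide as a block that of let-7e was not called. With slide as a block the differences with both factors were 1.83 for miR-99b and 2.18 for let-7e, neither called, 2.23 for miR-125a-5p and -1.72 for miR-125b-5p.

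Neural markers moved with the day 5 result. Their 4 miRNAs summed to 747 to 980 in controls, 723 to 1835 with Wnt3a, 77.7 to 87.5 with Activin A and 34.99 to 40.2 with both, with miR-219 or miR-9 the most abundant in these groups. By limma all 4 fell in each Activin A group, and miR-124 differed from control by -4.61 (adjusted p = 1.55e-08, lower on 3 of 3 arrays) and -4.70 (adjusted p = 1.3e-08, 3 of 3). From day 3 to day 5 in controls, the step at which miR-99a and miR-125b-5p were called higher, 4 of 4 neural markers rose. The part of neural cells in the levels of miR-99a, miR-100 and miR-125b-5p was not tested.

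Markers of undifferentiated and epiblast cells moved the other way. The 8 ES cell miRNAs summed to 7877 to 8592 in day 5 controls, 26455 to 29405 with Activin A and 31856 to 33906 with both, with 7 of 8 higher by limma in each comparison. The 5 miR-302 family markers summed to 1993 to 2065, 8082 to 8521 and 7308 to 7743, with 4 of 5 higher in each. Among 4 miRNAs of endoderm-derived tissues, miR-375 was undetected in day 5 controls and gave 47.0 to 50.1 with Activin A and 69.6 to 87.1 with both, while miR-192, miR-194 and miR-122 were undetected on every array. With Wnt3a alone miR-375 was also detected on every day 5 array, at 3.03 to 9.37, and by limma called higher than control. Fibroblast markers summed to 24.2 to 28.8 with Activin A and 72.0 to 77.3 with both, against 28.8 to 29.5 in controls. Blood markers were led by miR-223, and miR-144, miR-451 and miR-142-5p were undetected on every array. The part of any of these cells in the members' levels was not tested.

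**Figure D2:**
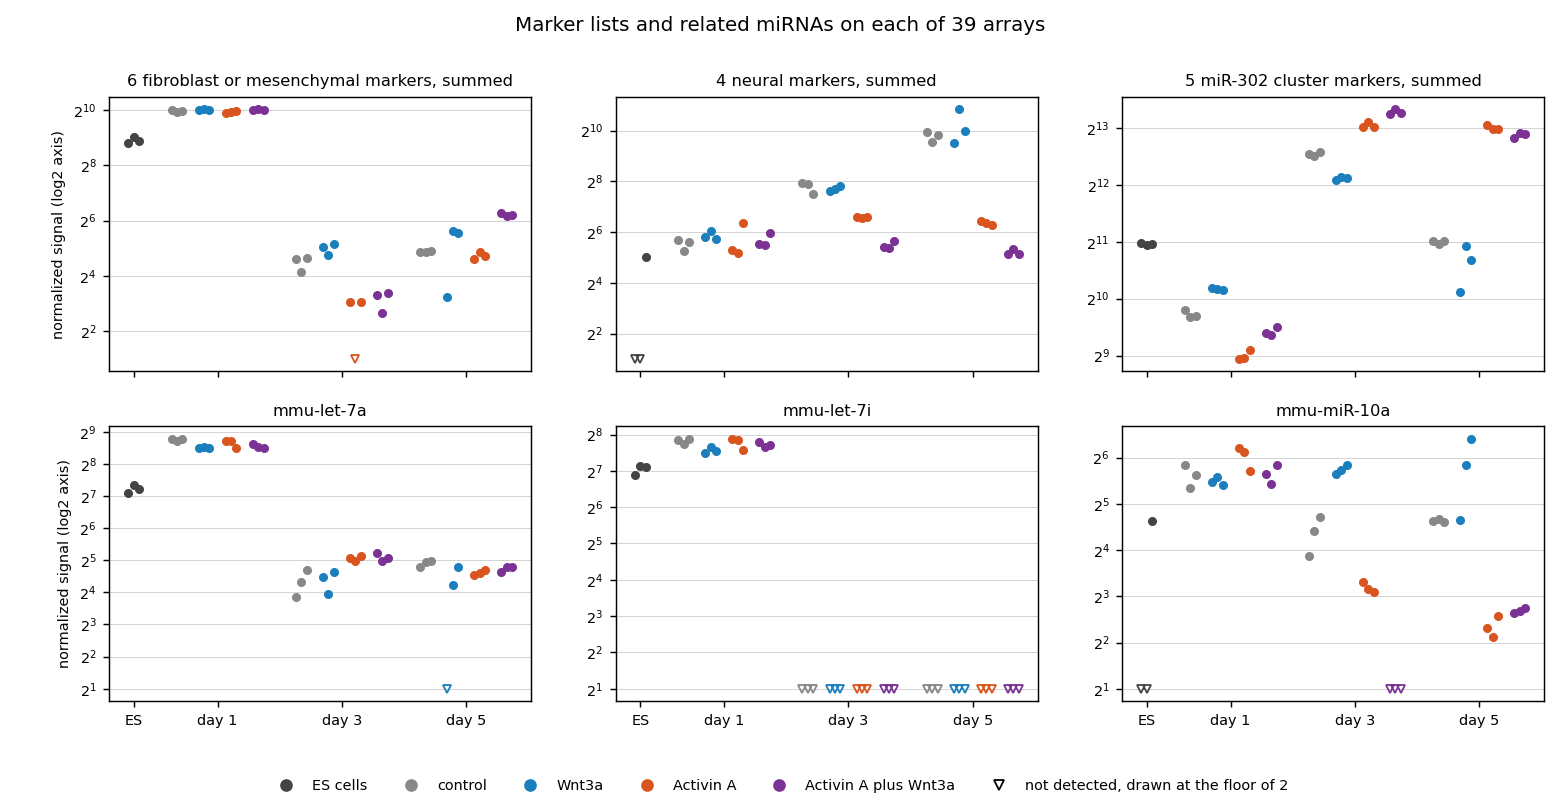
Summed normalized signal of the fibroblast, neural and miR-302 marker lists and normalized signal of let-7a, let-7i and miR-10a by group, with points for arrays. Neural markers at day 5 lay at 747 to 980 in controls and at 34.99 to 87.5 with Activin A, with or without Wnt3a.

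At day 3 the same split was present for the miR-125 pair and miR-100, and both let-7 paralogs were higher with Activin A. Signals of miR-125a-5p were 66.4, 61.8 and 76.5 in controls, 149, 139 and 137 with Activin A, 146, 122 and 133 with both, and 65.3, 66.4 and 67.6 with Wnt3a. All arrays with Activin A lay above all controls, and Wnt3a lay within the control range. The difference was 1.06 (SE 0.09), or 2.08-fold, with Activin A and 0.97 (SE 0.09), or 1.96-fold and so just short of a call, with both. Without control day 3 replicate 2 the former was 0.99 and not called. The latter was called without Activin A plus Wnt3a day 3 replicate 2 (1.04) or without control day 3 replicate 3 (1.06).

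For miR-125b-5p at day 3, controls gave 118, 107 and 116, Activin A 28.2, 26.0 and 25.7, both factors 41.4, 37.1 and 39.1, and Wnt3a 124, 135 and 133. Activin A gave the lowest arrays, both factors the next, and Wnt3a the highest, with no overlap among the 4 groups. Log2 means were 6.83 ± 0.07 (SD, n = 3) in controls, 4.73 ± 0.08 with Activin A, 5.29 ± 0.08 with both and 7.03 ± 0.07 with Wnt3a. The difference from control was -2.09 (SE 0.06), or 4.26-fold, with Activin A and -1.54 (SE 0.06), or 2.90-fold, with both, and 0.20 (SE 0.06) with Wnt3a.

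In the miR-99 family at day 3, miR-99b gave 75.2, 74.0 and 89.0 in controls, 166, 135 and 144 with Activin A, 153, 133 and 149 with both, and 77.6, 79.8 and 78.5 with Wnt3a. Every array with Activin A lay above every control, by 0.90 (SE 0.10), or 1.87-fold, and with both by 0.87 (SE 0.10), or 1.83-fold. MiR-100 gave 19.9, 17.3 and 25.0 in controls and 27.7, 25.0 and 29.6 with Wnt3a and was undetected on all 6 arrays with Activin A. It was at least 4.34-fold lower with Activin A and at least 5.91-fold lower with both. MiR-99a was near the detection limit, at 7.38, undetected and 9.37 in controls and 9.67, 11.3 and 10.1 with Wnt3a, and undetected with Activin A. Its bounds were only 1.10-fold with Activin A and 1.49-fold with both, and its calls were lost without control replicate 1 (-1.11) or 3 (-0.94), or without any 1 array of the treated group (-1.37). Without control day 3 replicate 2 its difference from each Activin A group was -2.06.

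Signals of let-7e at day 3 were 8.74, undetected and 8.59 in controls, 40.3, 38.4 and 38.4 with Activin A, 36.5, 32.7 and 33.1 with both, and 9.37, 10.3 and 15.8 with Wnt3a. Those of let-7c were 7.71, undetected and 8.43 in controls, 30.5, 28.6 and 30.9 with Activin A, 23.8, 17.7 and 17.9 with both, and 7.25, 9.97 and 9.20 with Wnt3a. Both paralogs were thus high on every array with Activin A and low in controls and with Wnt3a. For let-7e the difference was 2.88 (SE 0.49), or 7.34-fold, with Activin A and 2.68 (SE 0.49), or 6.41-fold, with both. For let-7c it was 2.57 (SE 0.46), or 5.92-fold, and 1.96 (SE 0.46), or 3.88-fold. These values rest in part on control day 3 replicate 2 at the floor. Without it they were 2.17 and 1.98 for let-7e and 1.90 and 1.29 for let-7c, all still called. With Wnt3a let-7e differed from control by 1.12 (SE 0.49), or by 0.41 without that array, and neither was called.

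At day 3, 6 of 8 members were called with Activin A (let-7e, miR-125a-5p and let-7c higher, miR-99a, miR-125b-5p and miR-100 lower), against 19% of 326 miRNAs, and nothing is read from it. With both factors 6 were called (let-7e and let-7c higher, miR-99b*, miR-99a, miR-125b-5p and miR-100 lower), against 20.2%, with the same controls. With normexp background correction and an offset of 50, 0 members were called by limma in either comparison, where 11 and 15 of all miRNAs were called. For Wnt3a, limma called 0 of 8, against 3.07% of all, with 146 miRNAs at an unadjusted p under 0.05. Leaving out control day 3 replicate 3 gave 1 call there, miR-99a at 1.43 in place of 1.00, while without control day 3 replicate 2 that value was 0.31. Within the slide that held Activin A and 2 control arrays, the Activin A differences were 0.87 for miR-99b, 3.24 for let-7e, 1.04 for miR-125a-5p, 2.87 for let-7c and -2.07 for miR-125b-5p. On that slide the values against control replicate 3 alone, without replicate 2, were 2.18 for let-7e and 1.83 for let-7c. With slide as a block the call of miR-99a with Activin A was lost (-1.11).

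At day 3 markers of several cell types differed between treated cells and controls. The neural sum was 181 to 244 in controls, 94.7 to 97.7 with Activin A and 41.4 to 49.9 with both. By limma miR-124 differed from control by -2.09 with Activin A (adjusted p = 2.86e-07, lower on 3 of 3 arrays), miR-219 was undetected in both Activin A groups, and miR-9* was higher with Activin A by 1.99 (adjusted p = 0.0206, 3 of 3). The fibroblast sum was 17.7 to 25.3 in controls, 0 to 8.43 with Activin A and 6.38 to 10.3 with both, and by limma miR-199a-3p differed by -2.10 (adjusted p = 0.00485, 3 of 3) and -1.36 (adjusted p = 0.0356, 3 of 3). Of the ES cell list 5 of 8 rose with Activin A and 7 of 8 with both. Of the miR-302 family 1 of 5, miR-367, rose with Activin A, and the endoderm tissue marker miR-375, detected on 1 of 3 control arrays with the others at the floor, was called higher with Activin A, with both and with Wnt3a. The part of these cells in the members' levels was not tested.

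**Figure D3:**
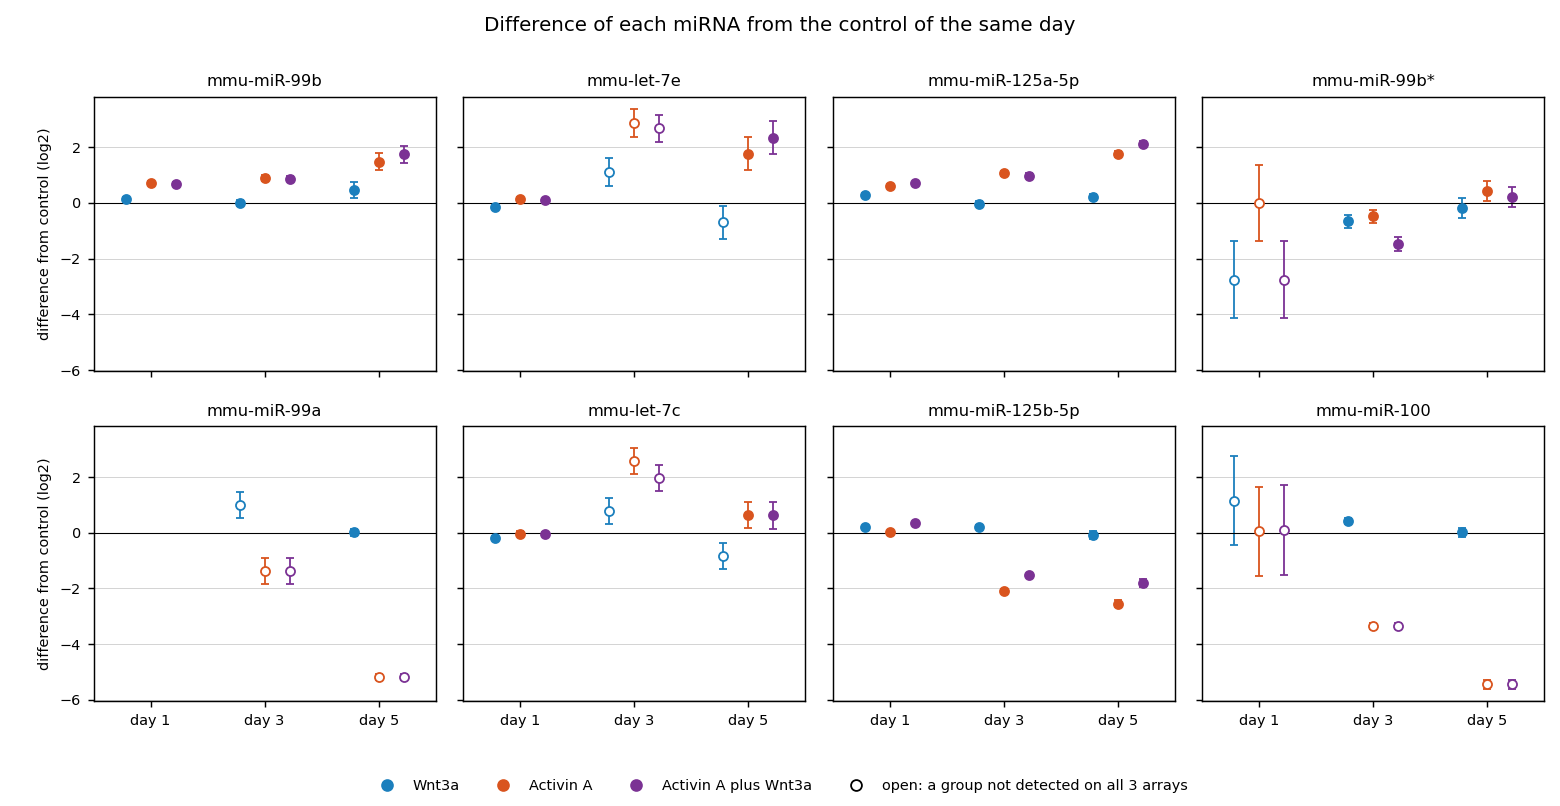
Log2 difference of each of the 8 miRNAs from the control of the same day, with points for Wnt3a, Activin A and both at days 1, 3 and 5, bars for the standard error and open points where a group was not detected on all 3 arrays. For Activin A, miR-125a-5p stood at 0.61, 1.06 and 1.76 and miR-125b-5p at 0.03, -2.09 and -2.55 on days 1, 3 and 5, the day 1 value of miR-125b-5p being -0.05 when scaled to the 75th percentile of miRNAs detected on all arrays, beside a median of all miRNAs of -0.08.

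At day 1 miR-99b and miR-125a-5p set both Activin A groups apart from control, by less than 2-fold. MiR-99b*, partly undetected that day, is described further on. The miR-99b signal was 92.2, 104 and 97.7 in controls, 164, 159 and 161 with Activin A, 151, 169 and 156 with both, and 104, 110.0 and 113 with Wnt3a. Every array with Activin A was above every control, by 0.72 (SE 0.06), or 1.65-fold, and with both by 0.70 (SE 0.06), or 1.62-fold. For miR-125a-5p the signals were 104, 107 and 111 in controls, 161, 161 and 169 with Activin A, 186, 176 and 161 with both, and 135, 128 and 135 with Wnt3a. Both Activin A groups again lay above control, by 0.61 (SE 0.06) and 0.70 (SE 0.06). Wnt3a also lay above, by 0.30 (SE 0.06), a value of -0.004 when scaled to the 75th percentile, where the median of all miRNAs was -0.20. On the slide shared by controls and 2 Activin A arrays, the Activin A differences were 0.72 for miR-99b and 0.59 for miR-125a-5p.

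The day 1 levels of let-7e, let-7c and miR-125b-5p were close to control in every treatment. Signals of let-7e were 240.3, 222 and 222 in controls, 265, 269 and 226 with Activin A, 246 on 2 arrays and 235 on the third with both, and 200.2, 209 and 209 with Wnt3a. Those of let-7c were 200.2, 191 and 186 in controls, 200.2, 200.2 and 166 with Activin A, 194, 191 and 173 with both, and 164, 173 and 169 with Wnt3a. Wnt3a arrays lay just under control for both, by -0.15 (SE 0.07) and -0.19 (SE 0.08), values that were 0.09 and 0.08 with slide as a block. MiR-125b-5p gave 1706, 1800 and 1800 in controls, 1800 on 3 arrays with Activin A, 2239 on 3 with both and 2014 on 3 with Wnt3a, repeats that arise where a miRNA has the same rank on several arrays. Its difference of 0.34 (SE 0.03) with both factors was -0.07 or -0.01 when scaled to the 75th percentile of miRNAs detected on all arrays or of all miRNAs. Those scalings put the median of all miRNAs at -0.23 and -0.17, so miR-125b-5p stayed above that median.

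No member was called at day 1. Limma called 0 of 7 tested members with Wnt3a (4.17% of 240 miRNAs called and nothing is read from it, 92 at an unadjusted p under 0.05), 0 of 7 with Activin A (0% called, 40 unadjusted) and 0 of 7 with both (5.42% called, 91 unadjusted). MiR-99a was undetected on all arrays of day 1 and not tested. Of markers, 0 of 5 fibroblast, 0 of 1 neural and 0 of 5 miR-302 family miRNAs were called in any comparison of that day. Of 8 ES cell miRNAs 1, miR-290-5p, was called higher with Wnt3a and with both factors, and the blood marker miR-223 was called higher with both factors than in control and than with Activin A, by bounds of only 1.07-fold and 1.21-fold since those groups did not detect it. MiR-100 was detected at day 1 on 1 of 3 arrays of control, Activin A and Activin A plus Wnt3a and on 2 of 3 of Wnt3a, with signals of 18.8 to 26.4, and gives no comparison.

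Between both factors and Activin A alone no member was called, and miR-125b-5p lay apart on every day. On the arrays given above, miR-125b-5p with both factors lay above Activin A alone on every day, by 0.32 (SE 0.03) at day 1, 0.56 (SE 0.06) at day 3 and 0.73 (SE 0.14) at day 5, while with 75th percentile scaling the day 1 value was -0.02 or -0.10 beside a median of all miRNAs of -0.16 or -0.23. MiR-125a-5p was also above at day 5, by 0.35 (SE 0.12), and overlapped at days 1 and 3. Let-7e was above Activin A alone at day 5, by 0.57 (SE 0.59), and below it at day 3, by -0.20 (SE 0.49), the latter 0.03 when scaled to the 75th percentile of miRNAs detected on all arrays, where the median of all miRNAs was 0.10. Let-7c was lower with both at day 3, by -0.61 (SE 0.46), and overlapped at day 5. MiR-99b* was lower with both at day 3, by -0.99 (SE 0.24), and was called there without Activin A plus Wnt3a replicate 2 (-1.18) or Activin A replicate 1 (-1.04) or 2 (-1.06). Limma called 0 of 7 members at day 1 (0.833% of all called and nothing is read from it, 65 unadjusted), 0 of 8 at day 3 (3.99%, 126) and 0 of 8 at day 5 (2.72%, 48). On the day 5 slide that held both factors and 1 Activin A array, the miR-125b-5p difference was 0.79. Read from the columns of the deposited series matrix as named, in which columns of these 2 treatments follow each other's arrays, the day 3 and day 5 values of miR-125b-5p were -0.81 and -0.77. Names on the array files were followed, and from the files alone it cannot be settled which names are right, so the direction of these differences depends on that choice.

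Strand miR-99b* did not follow miR-99b from the same hairpin. It gave 87.1, 36.5 and 28.0 in undifferentiated cells, 21.1, 24.7 and 21.1 in day 3 controls, 15.0, 14.5 and 18.6 with Activin A and 7.38, 10.3 and 6.69 with both at day 3. Day 3 arrays with Activin A and with both were all lower than control, while miR-99b was higher in the same samples. Those with both lay under those with Activin A, a difference of -0.99 that is 0.89 by the series matrix names. The differences were -0.48 (SE 0.24) and -1.47 (SE 0.24), the latter 2.78-fold. At day 5 it gave 5.48, 9.06 and 9.67 in controls, 10.3, 9.51 and 11.9 with Activin A and 12.3, 7.90 and 7.71 with both, with overlap in each comparison. At day 1 it was undetected on all 6 arrays with Wnt3a, and gave undetected, 19.6 and 62.8 in controls and 54.2, 22.5 and undetected with Activin A. Without Activin A day 1 replicate 3 it was called lower with both factors than with Activin A (-4.13). That value takes every array with both factors at the floor. With all arrays the difference was -2.75, not called, and by the series matrix names it was 2.87, so its direction depends on the names. With Wnt3a miR-99b* gave 20.4, 11.7 and 11.6 at day 3, below control by -0.66 (SE 0.24), and 12.3, 4.75 and 5.62 at day 5. Its probes did not all move the same way with Activin A at day 3 or day 5, unlike those of the other 7 members.

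The change of 1 miRNA relative to its paralog on the same array is not altered by a factor common to that array. Relative to miR-125b-5p, miR-125a-5p was higher with Activin A than in control by 0.58 (SE 0.03) at day 1, 3.15 (SE 0.07) at day 3 and 4.31 (SE 0.03) at day 5. With both factors these were 0.36 (SE 0.06), 2.51 (SE 0.08) and 3.93 (SE 0.05). All 9 arrays with Activin A and all 9 with both lay above the controls of their day. In controls the ratio changed by 3.30 (SE 0.07) from day 1 to day 3 and by -2.18 (SE 0.07) from day 3 to day 5, so the paralogs also changed unequally without growth factors.

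The let-7 pair changed more alike. Relative to let-7c, let-7e was higher with Activin A than in control by 0.31 (SE 0.07) at day 3 and 1.13 (SE 0.33) at day 5, and with both by 0.73 (SE 0.11) and 1.72 (SE 0.34). On control day 3 replicate 2 both were at the floor, and without it the day 3 values were 0.28 and 0.69. All treated arrays lay above control, yet the day 3 change was small beside that of the miR-125 pair. From control day 1 to day 3, when both let-7 miRNAs went near the detection limit, the ratio changed by -0.18 (SE 0.06), or by -0.14 without that array. In the miR-99 family the ratios with Activin A rest on the floor, since miR-99a and miR-100 were undetected. Where both were detected on all arrays, miR-99b against miR-100 changed by -2.63 (SE 0.09) from control day 3 to day 5 and, with Wnt3a against control, by -0.43 (SE 0.11) at day 3 and 0.46 (SE 0.26) at day 5. The day 5 Wnt3a change of miR-99b against miR-99a was 0.46 (SE 0.29). Without Wnt3a day 5 replicate 1 these day 5 values were 0.21 against miR-100 and 0.17 against miR-99a.

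**Figure D4:**
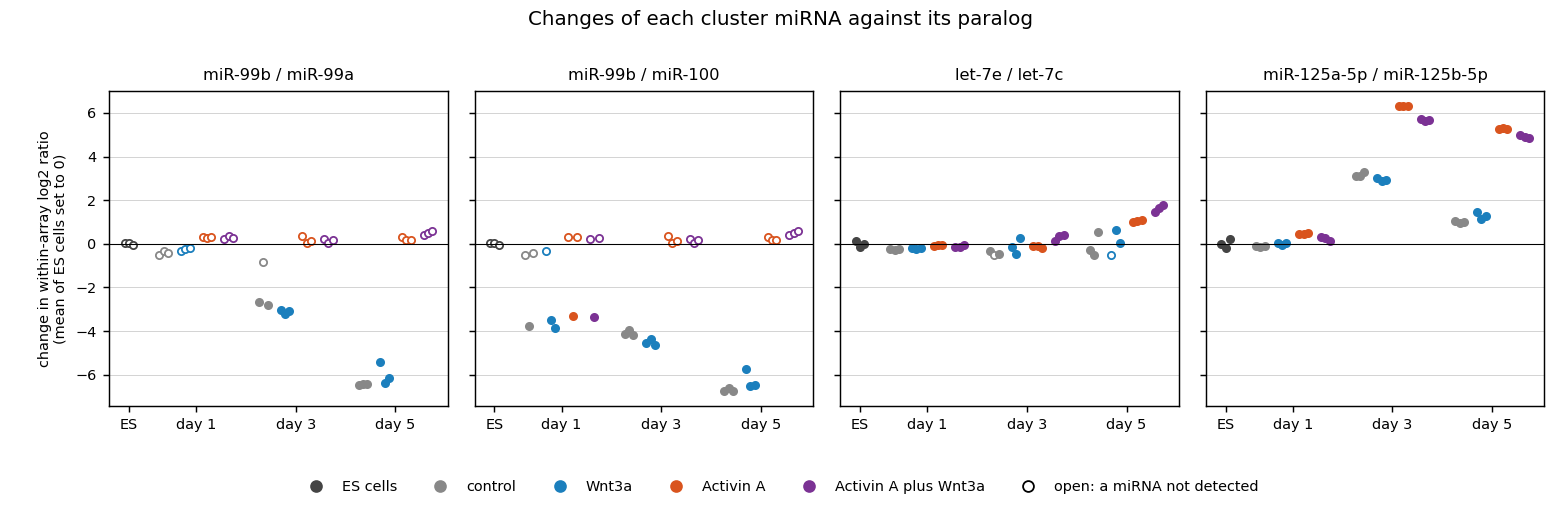
Change in the within-array log2 ratio of miR-99b to miR-99a, miR-99b to miR-100, let-7e to let-7c and miR-125a-5p to miR-125b-5p, with the mean of undifferentiated cells set to 0, points for arrays and open points where 1 of the pair was not detected. At day 5 the miR-125 ratio stood 4.31 higher with Activin A than in control, against 1.13 for the let-7 ratio.

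Ranked over the 13 groups, miR-125b-5p was lowest with Activin A at day 3 and highest with Activin A plus Wnt3a at day 1, and only 3 of its 12 pairs of neighbouring groups overlapped. By the series matrix names the differences of -0.81 at day 3 and -0.33 at day 1 put Activin A plus Wnt3a below Activin A at each end. For miR-99b and miR-125a-5p the lowest group was control day 5 and the highest Activin A plus Wnt3a at day 5, with 9 of 12 neighbours overlapping in each. By the series matrix names the day 5 differences between the Activin A groups were -0.28 for miR-99b and -0.35 for miR-125a-5p, which puts Activin A alone higher. For let-7e the order ran from control day 3 to Activin A day 1. For let-7c it ran from Wnt3a day 5 to control day 1, with 7 of 12 overlapping in each. By the series matrix names the day 1 difference of let-7e between the Activin A groups was 0.058 in place of -0.057. That puts Activin A plus Wnt3a highest for let-7e. The low ends of let-7e and let-7c rest on arrays at the floor. Without control day 3 replicate 2 the let-7e mean of that group was 3.12 in place of 2.41, above Wnt3a day 5 at 2.69, itself 3.53 without replicate 1. MiR-99a was detected on 11 of 39 arrays, miR-100 on 17, miR-99b* on 31 and let-7e and let-7c on 37, while miR-99b, miR-125a-5p and miR-125b-5p were detected on all 39. Neighbours overlapped in 10 of 12 cases for miR-99a, 11 for miR-100 and 9 for miR-99b*.

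Over the 13 group means, which share scan sessions, slides and normalization, miR-99b ran with miR-125a-5p (Pearson r 0.939, Spearman rho 0.978) and let-7e with let-7c (0.962 and 0.94). MiR-99a ran with miR-100 (0.916 and 0.842), both mostly at the floor. MiR-125a-5p and miR-125b-5p, which share a seed, gave 0.002 and -0.022, and miR-99b with miR-99b*, from 1 hairpin, -0.063 and -0.025. Among 285 other miRNAs, those most like the mean of miR-99b, let-7e and miR-125a-5p were miR-23a (r 0.977), miR-23b (0.973), miR-24 (0.965), miR-27b (0.961) and miR-27a (0.96). Most like the mean of miR-99a, let-7c, miR-125b-5p and miR-100 were miR-709 (0.897), miR-361 (0.886), miR-365 (0.879), miR-30a (0.807) and miR-10a (0.804). The miRNAs in this mean did not all run together, so likeness to it is not likeness to each. Let-7c gave r -0.634 with miR-99a, -0.473 with miR-100 and 0.714 with miR-125b-5p. MiR-125b-5p gave -0.058 with miR-99a and 0.141 with miR-100.

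Other let-7 miRNAs behaved like let-7e and let-7c over the early steps. From undifferentiated cells to day 1, limma called 6 of 9 tested related miRNAs, beside 16.6% of all. All were higher: let-7a, let-7b, let-7d, let-7f, let-7g and miR-10a. Let-7b and let-7g were detected on 2 of 3 ES arrays and miR-10a on 1 of 3, so the size of these differences rests on the floor. Their day 1 signals, the lowest 40.3 for miR-10a, exceeded the lowest detected signals of the ES arrays, at most 34.4. By limma let-7a rose by 1.535 (adjusted p = 0.0122, higher on 3 of 3 arrays) and let-7d by 1.56 (adjusted p = 1.09e-13, 3 of 3), while let-7i differed by 0.78 and passed the p-value but not the fold. From day 1 to day 3, 8 of 9 were called, 7 lower and miR-10b higher, beside 49.3% of all miRNAs. The miR-10b call comes from the floor, since its 1 detected day 1 array, at 22.3, lay within the day 3 range of 15.3 to 26.0. In limma, let-7a fell by 4.47 (adjusted p = 2.52e-09, lower on 3 of 3) to a geometric mean signal of 19.5. Let-7i, at 226 on day 1, was undetected on all arrays of days 3 and 5 and at least 42.6-fold lower at day 3 (limma adjusted p = 1.09e-34, 3 of 3). Let-7d and let-7i lay at the floor without spread in all groups of days 3 and 5. Their p-values therefore reflect the floor as well as the spread between samples. From day 3 to day 5, limma called 0 of 9, beside 18.5% of all miRNAs, with 170 of all at an unadjusted p under 0.05.

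With Activin A no other let-7 miRNA was called at day 3 or day 5. At day 3 let-7a differed from control by 0.78 with Activin A (limma adjusted p = 0.0123, higher on 3 of 3 arrays) and 0.81 with both (adjusted p = 0.0093, 3 of 3), under 2-fold. At day 5 let-7a gave -0.30 (limma adjusted p = 0.875) and -0.17 (adjusted p = 0.947), and let-7b, let-7d and let-7i were undetected in all 8 groups of days 3 and 5. Whether let-7e and let-7a differed in their response was not tested. MiR-98 was undetected in all 13 groups, and miR-351, with the miR-125 seed, never exceeded a group mean of 4.79.

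The miR-10 miRNAs, alike in sequence to miR-99a and miR-100, were called in several comparisons. MiR-10a, read from a Hox cluster, was lower with Activin A by -1.15 at day 3 (limma adjusted p = 0.000372, 3 of 3 arrays) and -2.295 at day 5 (adjusted p = 0.000791, 3 of 3). With both factors it was undetected at day 3, at least 5.85-fold lower than control (limma adjusted p = 1.29e-07, 3 of 3), and at day 5 differed by -1.95 (adjusted p = 0.00175, 3 of 3). MiR-10b differed with Activin A by -1.01 at day 3 (limma adjusted p = 0.000678, 3 of 3) and -1.02 at day 5 (adjusted p = 0.0246, 3 of 3). With Wnt3a alone at day 3 miR-10a was higher by 1.41 (limma adjusted p = 0.000251, 3 of 3) and miR-10b by 1.78 (adjusted p = 5.42e-05, 3 of 3), where no member of the miR-99 family was called. Between both factors and Activin A, miR-10b was higher by 1.23 at day 3 (limma adjusted p = 0.000764, 3 of 3) and 1.825 at day 5 (adjusted p = 0.00771, 3 of 3), and miR-10a was at least 2.64-fold lower at day 3. By the series matrix names these turn to -1.54 and -2.40 for miR-10b and 2.20 for miR-10a, so their direction depends on which names are right. Of the related list, 0 of 8 tested were called in any comparison at day 1 (92, 40, 91 and 65 of all miRNAs at an unadjusted p under 0.05) and 0 of 5 with Wnt3a at day 5 (76).

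Of 4 other strands of these hairpins on the array, only miR-125a-3p was detected, and let-7c-1*, miR-125b-3p and miR-125b* gave no signal in any group. MiR-125a-3p had a geometric mean of 55.0 in undifferentiated cells, was undetected in controls at day 1, and stood at 130 at day 3 and 174 at day 5. It was called lower from undifferentiated cells to day 1, by at least 2.37-fold (limma adjusted p = 4.32e-11, 3 of 3 arrays), and higher from day 1 to day 3, by at least 5.58-fold (adjusted p = 5.96e-14, 3 of 3). With Activin A it differed from control by -0.39 at day 3 (limma adjusted p = 0.000115, 3 of 3) and -0.56 at day 5 (adjusted p = 0.0376, 3 of 3), under 2-fold and opposite in sign to miR-125a-5p from the same hairpin.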

How the data were processed

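Spot intensities were made by the authors with Agilent Feature Extraction, version 10.7.3.1 per the file headers and 9.5.3.1 per the submitters' processing notes, and the total gene signal per miRNA, with background subtracted by that software, was used here as deposited. The log2 values of the authors' series matrix, as deposited, served only as an alternative. In it 18 of 39 columns followed arrays of the other Activin A treatment, and from the files alone it cannot be settled which names are right. Its column medians were 0.026 to 0.779, and how the values were centred is not given in the sources used here.

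Signals were quantile normalized over 39 arrays, floored at 2 and log2 transformed with limma 3.58.1 in R 4.3.3. Tested miRNAs were detected on at least 2 of 3 arrays of 1 group. Linear models were fitted per day, or over all arrays for time steps, with Benjamini-Hochberg adjustment, and a call took more than 2-fold with adjusted p below 0.05. Pairing of replicate numbers across groups was not evident: in 1 of 15 comparisons the correlations of matched replicates all exceeded 0.1. With 3 replicates per group this cannot exclude pairing, and the main fits used none. Alternatives covered 11 settings for scaling, background, filter, floor, blocks, fit and arrays. Members and lists were chosen with earlier results of these data known. Named miRNAs outside the members came from the lists or from the highest correlations. The scripts were tested on simulated data with known changes. With 3 arrays per group, precision is limited.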

Additional observations from a re-analysis of the deposited data

Results flagged for a closer look

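Let-7e with Wnt3a differed from control by 1.117 at day 3 and by -0.148 at day 1. Only 2 of 3 control arrays detected it on the later day, so the value rests in part on the floor. Without control day 3 replicate 2 it was 0.412. The change of sign between days was not tested.

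With Activin A plus Wnt3a, miR-125b-5p differed from control by 0.341 at day 1 and by -1.536 at day 3. The same day 1 value stood against -1.814 at day 5. With scaling to the 75th percentile of miRNAs detected on all arrays the day 1 value was -0.071, beside a median of all miRNAs of -0.229. Neither contrast between days was tested.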

How the results depend on the processing

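Counts of members called held to within 1.5 times under most settings. With normexp background correction and an offset of 50 they went from 6 to 0 for Activin A and for Activin A plus Wnt3a at day 3, from 6 to 1 for each at day 5 (miR-125b-5p only), from 2 to 0 from undifferentiated cells to day 1, from 5 to 3 from day 1 to day 3 and from 2 to 1 from day 3 to day 5. Under that setting the day 1 to day 3 difference of miR-99a had the other sign, -0.027 in place of 1.37, calls of related miRNAs over the 15 comparisons went from 25 to 8, and calls of other strands from 2 to 0. In 1 fit of all 39 arrays, 1 member was called in place of 0 for Wnt3a and for Activin A plus Wnt3a at day 1. Without a detection filter, 1 in place of 2 was called from undifferentiated cells to day 1. From day 1 to day 3, 3 in place of 5 were called with a floor of 10, in the series matrix as named and in the matrix matched to arrays, a setting added after the exchange of columns was seen. With scaling to the 75th percentile of miRNAs detected on all arrays, 5 in place of 2 were called from day 3 to day 5. The cause was not tested.

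With replicate number as a block 6 members were called for Activin A at day 5, as without it. With slide as a block 5 were called for Activin A at day 3 and at day 5 and 4 for both factors at day 5. The slide block could not be estimated for Activin A plus Wnt3a at day 3 or for control day 5 against day 3.

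Leaving out 1 array at a time gave 0 to 1 calls for Activin A plus Wnt3a against Activin A at day 1 (1 without Activin A replicate 3) and at day 3 (1 without Activin A plus Wnt3a replicate 2 or Activin A replicate 1 or 2). It gave 0 to 1 for Wnt3a at day 3 (1 without control replicate 3) and at day 5 (1 without Wnt3a replicate 3), 5 to 6 for Activin A at days 3 and 5 and for both factors at day 3, and 6 to 6 for both factors at day 5. From undifferentiated cells to day 1 it gave 1 to 2 (1 without control replicate 1 or 2 or ES replicate 1 or 3), from day 1 to day 3, 3 to 5 (3 without control day 3 replicate 3), and from day 3 to day 5, 2 to 3. Control day 3 replicate 2 and Wnt3a day 5 replicate 1 were also taken out singly and their values given by themselves, choices added after the data were seen, as were day 3 values against control replicate 3 alone on the shared slide. Calls of related miRNAs ranged from 23 to 29 (29 without Wnt3a day 5 replicate 1).

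Among all miRNAs, normexp lowered the calls with Activin A from 62 to 11 at day 3 and from 92 to 25 at day 5, with both factors from 66 to 15 and from 112 to 29, and over the time steps from 62 to 7, 184 to 47 and 69 to 12. The slide block lowered the day 5 calls with both factors from 112 to 65. At day 1 the calls with Wnt3a, 10, ranged from 0 (normexp) to 23 (1 fit), those with Activin A, 0, up to 14 (series matrix as named), those with both, 13, from 0 to 28, and those between both and Activin A, 2, from 0 to 10. For Wnt3a they went from 10 to 0 at day 3 and from 14 to between 0 and 34 at day 5. Between both factors and Activin A they went from 13 to between 0 and 21 at day 3 and from 10 to 0 at day 5. A floor of 10 gave 45 in place of 69 from day 3 to day 5.

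Scaling to the 75th percentile of miRNAs detected on all arrays shifted the median difference of all miRNAs at day 1 by -0.204 for Wnt3a, -0.207 for both factors and -0.157 between both and Activin A. It shifted it by -0.168 and -0.163 for Activin A at days 3 and 5, 0.135 between both and Activin A at day 3, -0.27 for both at day 5, and 0.279, 0.102 and 0.334 over the time steps. Member differences are to be read relative to these shifts.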
